A study of Mus musculus with 6 samples.

Results

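The genes described here are the formin gene Diaph3 and 9 other regulators of cell division and of the expulsion of the red cell nucleus, which are Diaph1, Rhoa, Rac1, Rac2, Cit, Racgap1, Kif23, Ect2 and Anln. They make up 10 of the 12393 mouse genes that the array measured with a probe set of their own. Diaph3 was chosen by its higher value on the mutant arrays of this same comparison, and the other genes were set beside it for their roles. Differences between the groups are therefore given for these genes as a description, and the counts of their calls support nothing. The 10 genes were read by 18 probe sets annotated to one of their symbols alone, with 1 probe set for 4 genes, 2 for 4 genes and 3 for 2 genes.

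Erythroblasts are the nucleated precursors of red cells. They divide several times and then eject their nucleus in a step that resembles an uneven cell division. In both steps the small GTPase RhoA, switched on at the cell's equator, drives formins to build straight actin filaments and drives myosin to tighten a ring. Diaph3, also known as mDia2, is a formin that acts in this ring, and its loss in mice is known to cause failed division and poor enucleation of erythroblasts. KIF23 and RACGAP1, the human counterparts of a pair of these genes, are mutated in forms of congenital dyserythropoietic anaemia, in which erythroblasts carry several nuclei.

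Erythroblasts sorted from mouse bone marrow for the transferrin receptor CD71 were hybridised to 6 Affymetrix arrays, 1 for each sample. Of these, 3 came from wild type mice and 3 from mice carrying a transgene that encodes the R62W form of RPS19, a ribosomal protein. All 6 samples are of the FVB/N strain, and the labels give no age and no promoter of the transgene. They do not say whether the 3 samples of a group are 3 animals, and p-values measure the spread among the arrays alone, technical or not. Diamond-Blackfan anaemia, named in the series title, is an inherited shortage of red cell precursors. The wild type samples share 1 tag in their descriptions and the mutant samples carry 3 different tags, whose meaning the labels do not state.

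Values are the deposited RMA values, on the log2 scale, and a difference is the mutant mean minus the wild type mean on that scale. A difference of 1 is a change of 2-fold. Levels of different probe sets are not compared, because each responds to its target with its own strength. Rps19 itself, read by 1 probe set, lay between 12.06 and 12.13 on the wild type arrays and between 12.06 and 12.10 on the mutant arrays. The labels do not say whether that probe set also reads the transgene, so it does not check the genotype.

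The mutant arrays differed among themselves more than the wild type arrays did. The SD of the difference between 2 arrays over all genes was 0.139 to 0.182 within wild type, 0.337 to 0.515 within the mutant group and 0.360 to 0.419 between groups. Mutant array 3 alone read low for the female transcript Xist (5.78, against 11.38 to 12.07) and high for the Y-linked Eif2s3y (8.34, against 2.23 to 2.45). These are readings of a male on mutant array 3 and of females on the other arrays. The mutant group thus mixed sexes and did not come from 1 animal alone. Gapdh control probe sets at the 3' end read above those at the 5' end by 0.252 to 0.311 on the mutant arrays and by -0.087 to -0.049 on the wild type arrays (n = 3 each, exact permutation p = 0.1, two-sided, the smallest that 3 against 3 arrays allow). For Actb the same value was 1.58 to 1.88 in mutant and 1.26 to 1.37 in wild type samples (exact permutation p = 0.1), and for Tfrc it was 1.63 to 1.88 and 1.67 to 1.78 (exact permutation p = 0.8). Spiked control transcripts read 8.90 to 8.92 in wild type and 11.70 to 13.52 in mutant samples. The part of these shifts in the values of the members was not tested.

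The sorted cells carried the transcripts of erythroblasts. Alpha globin probe sets annotated to Hba-a1 and Hba-a2 together read 12.81 to 14.20 on all arrays, while the 1 probe set annotated to Hba-a1 alone read 2.87 to 3.27. The mean over 9 measured of 12 erythroblast markers, among them Gata1, Klf1 and Tfrc, was 9.66 to 9.72 on the wild type arrays and 9.16, 9.79 and 9.88 on mutant arrays 1, 2 and 3. Of the 9, 6 had a lower and 3 a higher mutant mean. Tfrc, which encodes the sorting marker CD71, read 12.147, 12.143 and 12.125 in wild type and 11.45, 11.99 and 11.96 in mutant samples (-0.34 ± 0.155). Its 3 probe sets ran from -1.10 to -0.34. Transcripts of other marrow cells moved between the mutant arrays. The mean over 10 measured of 12 B lineage markers, of which 9 had a higher mutant mean, was 6.17 to 6.21 in wild type samples and 6.15, 7.94 and 6.91 on mutant arrays 1, 2 and 3. That over 12 neutrophil markers was 9.57 to 9.70 in wild type and 10.38, 9.12 and 8.63 in the mutant samples, in that order. For 7 markers of mast cells, basophils and eosinophils it was 6.56 to 6.74 and then 8.01, 6.33 and 5.34, and for 11 markers of monocytes and macrophages 6.90 to 7.03 and then 6.91, 6.68 and 6.10. For 9 megakaryocyte markers it was 5.18 to 5.27 and then 5.82, 5.40 and 5.47, and for 8 markers of T and NK cells 4.78 to 4.89 and then 4.95, 5.06 and 4.72. In RNA from a mixture of cells, fewer cells of a type and less RNA per cell cannot be told apart.

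Promoter sequence was available for 7 of the 10 genes, as the 250 bases before and 50 bases after the start of a transcript in RefSeq (GRCm38.p6). The stretches from 150 bases before to 30 bases after the start are shown for Diaph3, Cit, Racgap1 and Kif23, which had the largest differences among the genes with a sequence. In each line the capitals mark the CCAAT box (CCAAT, or ATTGG on the other strand) and the cell cycle homology region (TTTGAA, or TTCAAA on the other strand), which are known from promoters of genes expressed in mitosis.
Diaph3 (chr14:87141195-87141374, minus strand): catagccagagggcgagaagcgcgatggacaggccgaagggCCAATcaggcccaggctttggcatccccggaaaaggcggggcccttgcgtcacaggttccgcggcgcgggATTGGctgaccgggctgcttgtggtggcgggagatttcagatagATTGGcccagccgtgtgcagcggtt
Cit (chr5:115845506-115845685, plus strand): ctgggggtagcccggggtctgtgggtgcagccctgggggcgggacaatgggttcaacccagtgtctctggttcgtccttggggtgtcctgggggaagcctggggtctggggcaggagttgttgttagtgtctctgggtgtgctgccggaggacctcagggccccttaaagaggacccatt
Racgap1 (chr15:99651627-99651806, minus strand): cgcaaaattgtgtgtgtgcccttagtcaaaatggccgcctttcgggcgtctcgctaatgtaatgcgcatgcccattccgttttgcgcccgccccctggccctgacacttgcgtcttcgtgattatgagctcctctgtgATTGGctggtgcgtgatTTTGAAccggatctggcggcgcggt
Kif23 (chr9:61946770-61946949, minus strand): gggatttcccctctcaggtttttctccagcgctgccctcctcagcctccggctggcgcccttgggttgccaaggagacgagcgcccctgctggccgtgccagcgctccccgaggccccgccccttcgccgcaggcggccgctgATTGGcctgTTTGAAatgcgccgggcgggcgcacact

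In the full windows of 300 bases the CCAAT box occurred in 4 of the 7 genes, which were Diaph3, Racgap1, Kif23 and Ect2, against 41.1% of the 27025 genes with a window in the table. Diaph3 held it 3 times, and its matches began 109 and 39 bases before the start and at base 6 after it. The cell cycle homology letters occurred in Racgap1, Kif23, Ect2 and Anln, against 20.2% of all genes. In Racgap1 and Kif23 both motifs lay close together at the start, with CCAAT boxes beginning 12 and 7 bases before it and the homology letters at bases 6 and 3 after it. The cell cycle homology letters were not found in the windows of Diaph3, Cit and Rhoa. The letters AGATAA or TTATCT, searched as a form of the erythroid GATA motif, were in 0 of the 7 genes and in 12.7% of all genes. Other forms of that motif were not searched, and the Diaph3 stretch above holds the letters agatag. The count of 0 thus does not show that the motif is absent. All these counts are matches of letters, and no binding was measured.

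Diaph3 had the largest difference among the members. It read 6.06, 5.89 and 5.69 on the wild type arrays and 7.38, 7.66 and 7.63 on the mutant arrays. The 3 mutant arrays lay close together and every one stood more than 1 unit above every wild type array. The group means were 5.88 ± 0.187 and 7.56 ± 0.153 (SD, n = 3 each), so that the mutant mean was higher by 1.67 ± 0.132 (SE of the fit), which is 3.19-fold (95% confidence interval of the difference 1.37 to 1.98). Among the 22626 probe sets its difference was number 17 from the highest. Leaving out any 1 array gave values from 1.58 to 1.76, and repeating the quantile normalisation without control probe sets gave 1.64. The probe set, 1422944_a_at, is of a class designed to read several transcripts of 1 gene. It is the only probe set for Diaph3 here, so no second one could be set against it.

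Diaph1, which encodes the related formin mDia1, was read by 2 probe sets that differed in sign. Probe set 1454979_at read 8.83, 8.92 and 8.74 in wild type and 9.19, 8.99 and 8.85 in mutant samples, a difference of 0.18 ± 0.115. Probe set 1421143_at read 6.59, 6.63 and 6.44 in wild type and 6.50, 6.32 and 6.42 in mutant samples, a difference of -0.14 ± 0.10. The groups overlapped on both, and both intervals reached across 0 (-0.09 to 0.45 and -0.37 to 0.09).

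**Figure D1:**
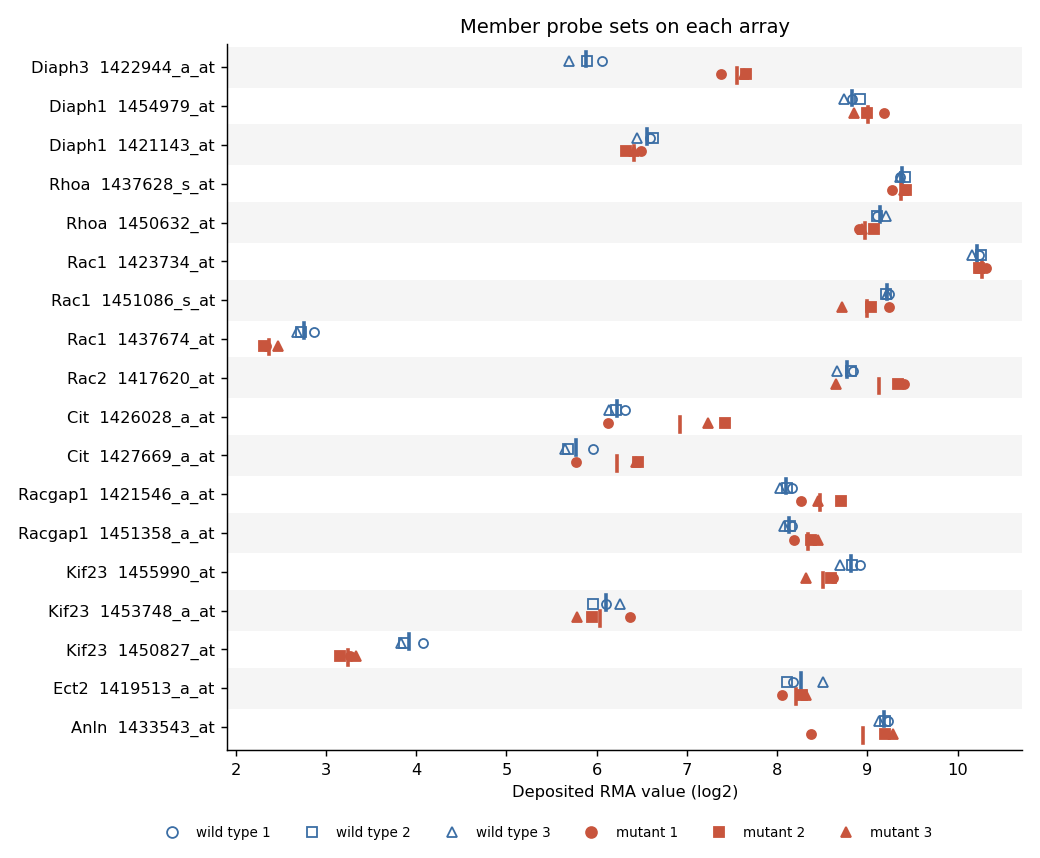
Deposited RMA values (log2, horizontal axis) of the 18 probe sets of the 10 genes on each of 6 arrays, with open blue symbols for wild type, filled red symbols for mutant samples and short vertical lines for group means. Diaph3 is the one probe set whose groups are more than 1 unit apart, and for Cit mutant array 1 lies with the wild type arrays.

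The GTPases Rhoa, Rac1 and Rac2 switch the actin skeleton on and off, Rhoa at the furrow and the Rac pair in branched networks and, in erythroblasts, in enucleation. Rhoa read 9.37, 9.42 and 9.36 in wild type and 9.28, 9.43 and 9.40 in mutant samples on probe set 1437628_s_at. The groups overlapped there, with a difference of -0.01 ± 0.091 (95% interval -0.23 to 0.20) that took the sign of 0.01 when quantile normalisation was repeated without controls. On 1450632_at Rhoa read 9.10, 9.10 and 9.21 and then 8.91, 9.07 and 8.94, so that the mutant arrays lay just below the wild type arrays, by -0.16 ± 0.094 (-0.38 to 0.06).

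Rac1 was read by 3 probe sets, of which 1 had a higher and 2 a lower mutant mean. On 1423734_at it read 10.24, 10.26 and 10.16 in wild type and 10.32, 10.24 and 10.24 in mutant samples, a difference of 0.05 ± 0.088 with overlapping groups. On 1451086_s_at the wild type arrays read 9.25, 9.21 and 9.21 and the mutant arrays 9.24, 9.04 and 8.71, a difference of -0.23 ± 0.140 that was -0.08 without mutant array 3. The third, 1437674_at, read 2.68 to 2.87 in wild type and 2.31 to 2.47 in mutant samples without overlap (-0.39 ± 0.10), and both ranges are dim, below 5. The differences of the 3 probe sets of Rac1 thus ran from -0.39 to 0.05.

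Rac2, the Rac protein of blood cells, read 8.84, 8.82 and 8.67 in wild type and 9.41, 9.34 and 8.65 in mutant samples. Mutant arrays 1 and 2 stood above the wild type arrays, and mutant array 3 stood at their lower edge. The mean difference of 0.36 ± 0.200 (-0.11 to 0.83) was 0.60 without mutant array 3 and 0.22 without mutant array 1. Mutant array 3 was also lowest for the neutrophil, monocyte and mast cell markers given above, and the part of those cells in the Rac2 values was not tested.

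Cit encodes citron kinase, which holds the late furrow and the midbody together. It was read by 2 probe sets of the same sign. On 1426028_a_at the wild type arrays read 6.31, 6.21 and 6.14 and the mutant arrays 6.13, 7.42 and 7.23. On 1427669_a_at they read 5.96, 5.68 and 5.65 and then 5.77, 6.46 and 6.43. On both, mutant arrays 2 and 3 were clearly above all wild type arrays and mutant array 1 was within or below them. The mean differences were 0.71 ± 0.311 (-0.02 to 1.43) and 0.46 ± 0.199 (-0.01 to 0.92), and without mutant array 1 they were 1.11 and 0.68. Several gene lists were also lowest on mutant array 1. Median deviations from the wild type mean on mutant arrays 1, 2 and 3 were -0.05, 1.86 and 0.68 for the B lineage markers. They were -0.27, 0.15 and 0.20 for 19 mitotic phase markers, such as Top2a and Mki67, and -0.47, 0.10 and 0.09 for the erythroblast markers. The part of any of these in the Cit values was not tested.

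Racgap1 and Kif23 encode the partners in centralspindlin, the complex that bundles microtubules midway between the separating chromosomes and brings Ect2 there. Their differences had opposite signs. Racgap1 read 8.17, 8.11 and 8.03 in wild type and 8.27, 8.71 and 8.45 in mutant samples on 1421546_a_at. On 1451358_a_at it read 8.17, 8.14 and 8.08 and then 8.19, 8.38 and 8.45. On both probe sets every mutant array lay above every wild type array, mutant array 1 by the smallest margin, and the differences were 0.37 ± 0.128 (0.07 to 0.67) and 0.21 ± 0.103 (-0.03 to 0.45).

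Kif23 read 8.92, 8.83 and 8.69 in wild type and 8.62, 8.59 and 8.33 in mutant samples on 1455990_at, without overlap and with a difference of -0.30 ± 0.119 (-0.58 to -0.03). On 1450827_at it read 4.07, 3.86 and 3.83 and then 3.26, 3.15 and 3.33, also without overlap, with a difference of -0.67 ± 0.107 (-0.92 to -0.42). That probe set read below 5 on all arrays. The third, 1453748_a_at, read 6.10, 5.96 and 6.25 in wild type and 6.37, 5.95 and 5.78 in mutant samples. Its groups overlapped, and its difference of -0.07 ± 0.166 took the sign of 0.06 without mutant array 3. All 3 probe sets of Kif23 had a lower mutant mean with all arrays, while the size ran from -0.67 to -0.07.

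Ect2, the exchange factor that loads RhoA with GTP at the furrow, read 8.18, 8.11 and 8.50 in wild type and 8.05, 8.27 and 8.32 in mutant samples. The groups overlapped, and the difference of -0.05 ± 0.136 (-0.37 to 0.27) took the sign of 0.03 without mutant array 1. Anln encodes anillin, which ties actin, myosin and septins to the furrow. It read 9.23, 9.19 and 9.13 in wild type and 8.38, 9.19 and 9.28 in mutant samples. Mutant array 1 alone was low, by 0.81 from the wild type mean, and the difference of -0.23 ± 0.229 (-0.77 to 0.30) was 0.05 without it. On the same array the median erythroblast marker deviated by -0.47 and the median of 19 mitotic phase markers, such as Top2a and Mki67, by -0.27, against 0.10 and 0.15 on mutant array 2 and 0.09 and 0.20 on mutant array 3. The part of these shifts in the Anln value was not tested.

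**Figure D2:**
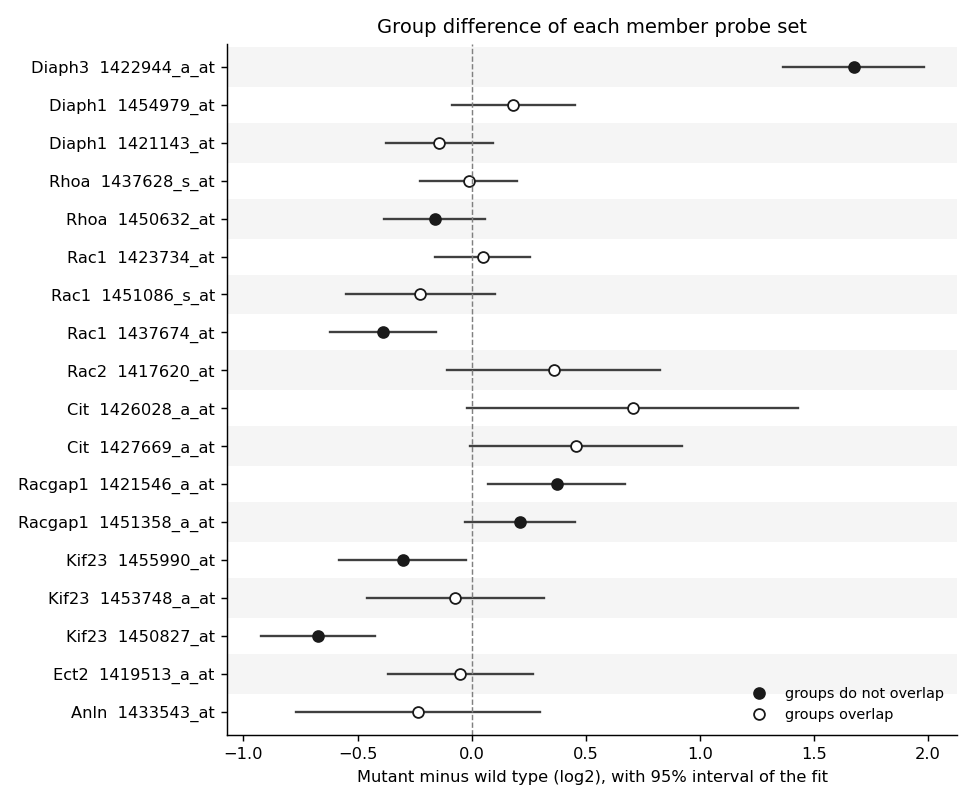
Mutant minus wild type difference (log2, horizontal axis) of the 18 probe sets with the 95% interval of the fit over all probe sets, filled where the 3 mutant and 3 wild type arrays do not overlap. Diaph3, chosen for its high value here, is at 1.67, and the other 17 estimates run from -0.67 to 0.71, with the interval of one Cit probe set reaching 1.43.

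Agreement among the probe sets of a gene could be examined for the 6 genes with several. The signs agreed for 4 of them, Rhoa, Cit, Racgap1 and Kif23, and differed for 2, Diaph1 and Rac1. Over all 4956 genes with several probe sets the signs agreed for 2341, or 47.2%. The agreement for Rhoa was lost when quantile normalisation was repeated without controls, with a weight for each array, and without wild type array 2 or mutant array 1. That for Kif23 was lost without wild type array 3 or mutant array 3. The agreement held for Cit and Racgap1 when any 1 array was left out.

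Over the 18 probe sets, 8 had a higher and 10 a lower mutant mean, with a median difference of -0.03 against -0.01 over all probe sets. The median size of the difference, whatever its sign, was 0.230 against 0.146. These sets are unlike, since Diaph3 was chosen by this comparison and the members were brighter. Of the 18 probe sets 16 had a mean of at least 5, whereas the median over all probe sets was 5.34 to 5.40 per array. The groups did not overlap for 7 of the 18, with 3 higher and 4 lower, whereas 26.1% of all probe sets had groups that did not overlap. The SD among mutant arrays exceeded that among wild type arrays for 12 of the 18 and for 76.7% of all probe sets.

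In the fit over all 22626 probe sets, 2 of the 18 were called at an adjusted p under 0.05 (limma), Diaph3 and the dim Kif23 probe set 1450827_at, while 2.33% of all probe sets were called. At an unadjusted p under 0.05 there were 5 of 18, against 19.1% of all. Because this comparison served to choose Diaph3, nothing is read from these counts. Without mutant array 1, 5 of the 18 were called, with both Cit probe sets and 1421546_a_at of Racgap1 added, and 11.2% of all probe sets were called in that fit. With 1 probe set for each gene, Diaph3 was the one called among the 10, and 0.331% of all genes were called. That call was lost without any 1 of the wild type arrays, with the replicate number as a block, and without the shared variance estimate.

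**Figure D3:**
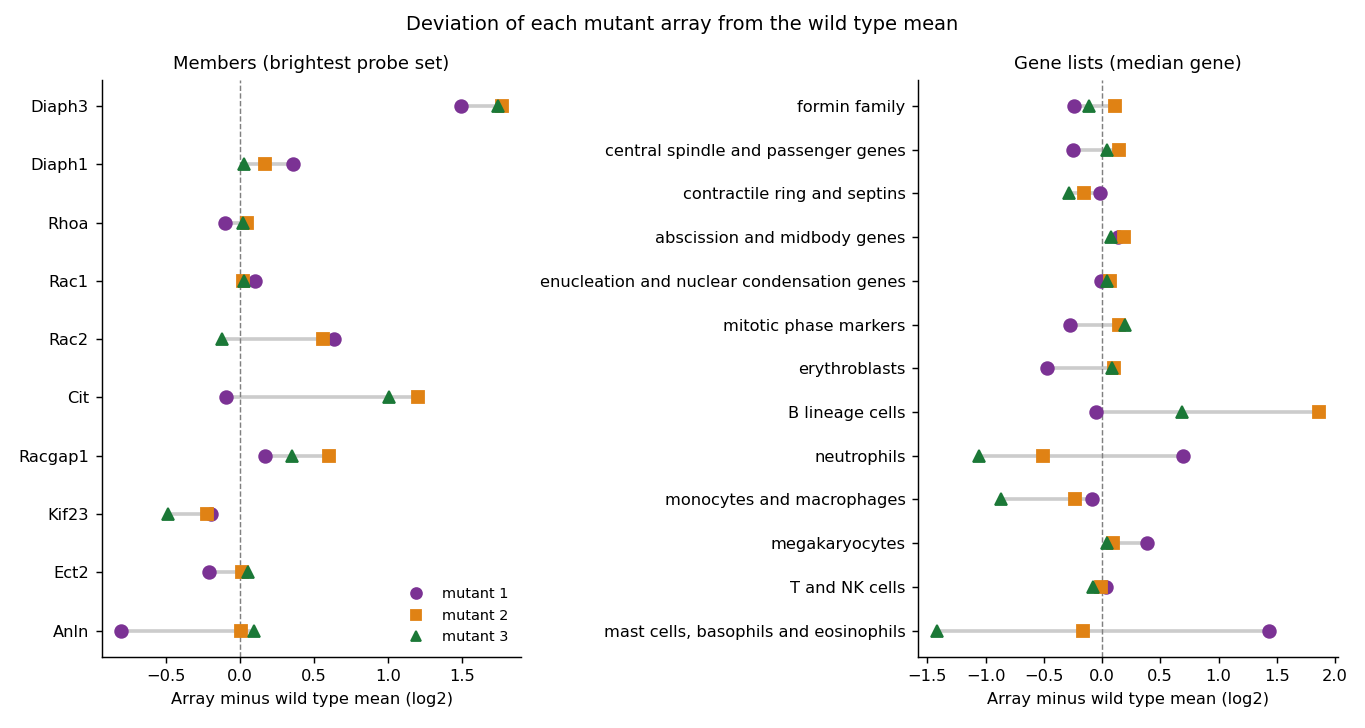
Deviation of mutant arrays 1, 2 and 3 from the wild type mean (log2, horizontal axes), for the probe set of highest mean of each of the 10 genes at left and for the median gene of the lists described at right. Diaph3 deviates by 1.50 to 1.78 on the 3 arrays, whereas Cit deviates by -0.09, 1.20 and 1.01.

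The patterns closest to that of Diaph3 over the 6 arrays were sought among all other genes, as the smallest root mean square difference after the wild type mean of each gene was subtracted. They were those of Vwf, the von Willebrand factor (0.220), Rpgrip1 (0.259), Lpin1, a phosphatidate phosphatase (0.266), Pop4, a subunit of RNase P (0.272), the RNA-binding protein gene Raly (0.288) and 1700097N02Rik (0.311). On mutant arrays 1, 2 and 3 Diaph3 deviated from its wild type mean by 1.50, 1.78 and 1.75, and Vwf by 1.03, 1.69 and 1.71. Vwf is also a megakaryocyte gene, and the other measured genes of that list varied in their order on these arrays. Ppbp deviated by 2.55, 0.24 and -0.11, Pf4 by 1.36, -0.04 and -0.02, and Itga2b by 0.75, 0.14 and -0.15. All of these, and Selp, were highest on mutant array 1. The rest were not, as Gp9 deviated by -0.22, 0.30 and 0.63 and Gp1bb by -0.21, 0.09 and 0.13. Gp5 deviated by -0.19, -0.38 and 0.10 and Treml1 by -0.11, 0.04 and 0.04. The median deviations over the 9 genes of the list were 0.38, 0.09 and 0.04, and the part of that lineage in the Diaph3 values was not tested. None of the other 9 members was among these closest genes, which adds nothing to the differences given above. The measure weighs the size of a difference, and the largest among the other 9 members was 0.71, for Cit.

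Other genes of the same processes were taken from 7 lists chosen by function, which with the members left out held 152 measured genes. By limma over all genes 0 of the 152 were called in either direction, against 0.331% of all genes. At so low a share, 0 called here or in any 1 of the lists below says little about those genes. At an unadjusted p under 0.05 there were 27 (17.4% of all genes). Without the shared variance estimate 0 were called, as were 0 of all genes, so that count adds nothing. The median difference of the 152 genes was 0.04, against -0.004 over all genes. Of the other formins 6 were measured, 0 of them called and 0 at an unadjusted p under 0.05 by limma, with a median difference of -0.08. All but Fhdc1 were dim, with a mean below 5, so that a change could be missed. Among them Fhdc1, a formin that also binds microtubules, read 8.55, 8.49 and 8.44 in wild type and 8.25, 9.40 and 9.15 in mutant samples (0.44 ± 0.271, adjusted p = 0.46). As for Cit, mutant arrays 2 and 3 were high and mutant array 1 was not. Fhod3 differed by -0.26 ± 0.157, Fmn1 by -0.16 ± 0.127 and Fmn2 by -0.13 ± 0.178, with its 3 probe sets running from -0.13 to 0.12.

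The contractile ring list held 25 measured genes, with 0 called by limma and 1 higher and 4 lower at an unadjusted p under 0.05 (median difference -0.05). Profilin, Pfn1, delivers actin monomers to formins. It read 11.16, 11.20 and 11.08 in wild type and 10.63, 9.67 and 9.76 in mutant samples, so that all mutant arrays were lower and arrays 2 and 3 the most (-1.13 ± 0.242, adjusted p = 0.090). Actb, cytoplasmic beta actin, read 12.79, 12.79 and 12.83 and then 12.37, 12.34 and 12.19 (-0.50 ± 0.093, adjusted p = 0.071), and its other probe set differed by 0.63. The Actb control probe sets at the 3' and 5' ends also moved apart on the mutant arrays, as given above. Septin7 differed by -0.30 ± 0.088, with -0.03 on its other probe set. The actin-severing gene Cfl1 differed by 0.28 ± 0.097, with -0.17 on its other probe set.

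The central spindle list held 13 measured genes, with 0 called by limma and 1 higher and 0 lower at an unadjusted p under 0.05 (median difference -0.05). Kif2c, which takes microtubules apart, differed by 0.27 ± 0.103, and its 4 probe sets ran from -0.33 to 0.42. Birc5, the survivin of the chromosomal passenger complex, differed by -0.21 ± 0.114, the mitotic kinase gene Plk1 by -0.26 ± 0.145 and the spindle motor gene Kif11 by -0.22 ± 0.122 (adjusted p = 0.25 to 0.42 for these 4 genes). Of 19 mitotic phase markers 0 were called by limma, with 1 higher and 1 lower at an unadjusted p under 0.05 (median difference 0.02). These were Cdc25b, a phosphatase that starts mitosis, at 0.61 ± 0.236, and Ube2c, of the anaphase-promoting pathway, at -0.45 ± 0.176 (adjusted p = 0.25 for both). Bub1 differed by -0.22 ± 0.129 and Ttk by 0.17 ± 0.124.

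Abscission, the final cut between daughter cells, is done by ESCRT proteins. Of 24 measured genes of abscission and the midbody 0 were called by limma, and 7 were higher and 3 lower at an unadjusted p under 0.05 (median difference 0.17). Zfyve26 differed by 0.60 ± 0.139, Zfyve19, which helps to delay abscission, by 0.32 ± 0.090, and the ESCRT genes Chmp6 and Chmp5 by 0.39 ± 0.116 and -0.39 ± 0.109 (adjusted p = 0.10 to 0.16 for these 4 genes). Of 32 measured genes of enucleation and nuclear condensation 0 were called by limma, with 4 higher and 1 lower at an unadjusted p under 0.05 (median difference 0.03). Xpo7, a nuclear exporter known to be needed for the erythroblast nucleus to condense, read 9.90, 9.98 and 9.92 in wild type and 10.26, 10.84 and 10.72 in mutant samples (0.68 ± 0.156, adjusted p = 0.10). Clta, a clathrin light chain, differed by 0.44 ± 0.102, Plek2, an actin regulator of erythroblasts, by 0.38 ± 0.110 and Hdac5 by 0.46 ± 0.166.

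**Figure D4:**
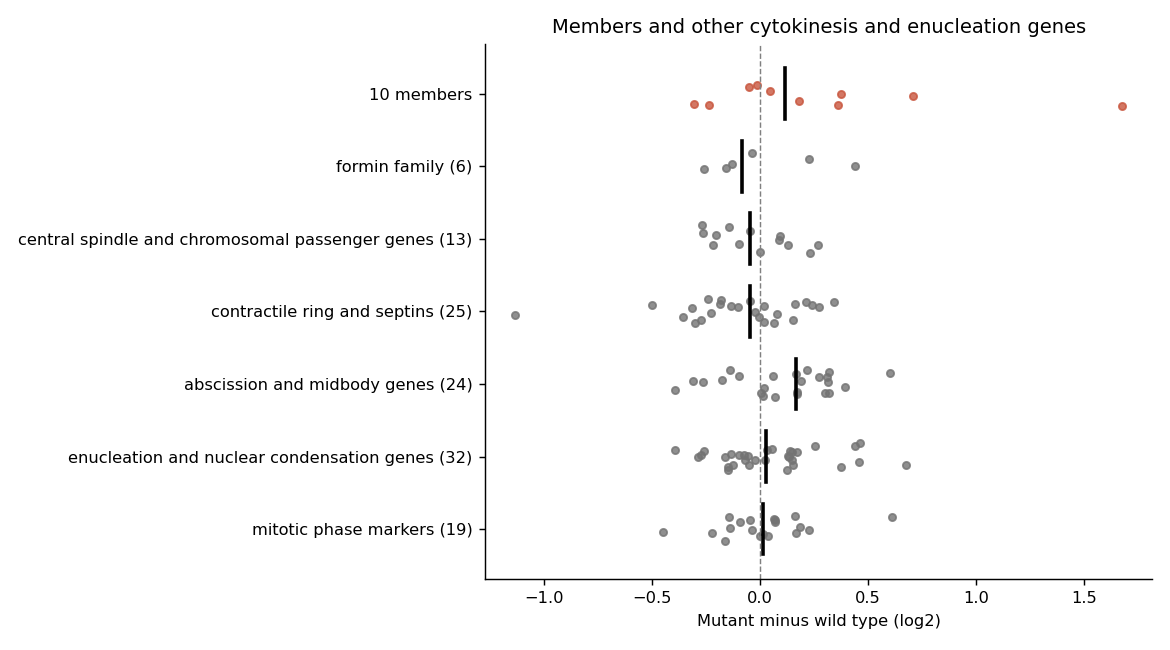
Mutant minus wild type difference (log2, horizontal axis) of the 10 members, by their probe set of highest mean, and of the measured genes of 6 lists, with 1 point for each gene and a black line at the median. Diaph3, at 1.67, is the rightmost point, and the lists' medians lie between -0.08 and 0.17.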

How the data were processed

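Erythroblasts of 6 mouse samples were measured on 1 Affymetrix array each. The deposited values are log2 expression values that the authors made with GCOS and the RMA method of Affymetrix Expression Console, per the submitters' processing notes. RMA subtracts background, gives all arrays one distribution and combines the probes of a set, which compresses differences of dim probe sets. Software versions and the set of arrays normalised jointly are not stated. The table has 22690 probe sets, of which 64 controls were left out of tests.

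Gene names came from the platform annotation of 2016, which gave 1 symbol for 20380 of the 22626 probe sets tested. Entrez identifiers of 20351 matched a RefSeq gene table (GRCm38.p6). No build is named for the array, so coordinates are given for the RefSeq promoter sequences alone.

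Groups were tested by limma 3.58.1 under R 4.3.3 (lmFit, eBayes, two-sided, no covariates, Benjamini-Hochberg over all features, called at an adjusted p under 0.05). It was fitted over all probe sets and over 12393 genes, each by its probe set of highest mean. The fit was run on data made with known changes. Those data had the same spread in both groups, whereas the mutant arrays here spread more, so that run does not check the calls. Other tables used Python 3.11.15 with pandas 2.3.3, scipy 1.17.1 and matplotlib 3.10.9.

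The members, lists and rules were chosen with earlier results of these data known. One of the pathway lists is counted in the totals and not reported here by itself. Named are all members, up to 4 genes of lowest p in each list, and the 6 genes most like Diaph3. Some further list genes, such as Gp9, are named as examples. Alternatives covered the variance prior, array weights, normalisation, a replicate block, a filter on dim probe sets, the threshold, the mean of a gene's probe sets and leaving out each array. Array number limits the precision.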

Additional observations from a re-analysis of the deposited data

Results flagged for a closer look

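Control transcripts of bacterial origin, spiked into the RNA and used in no comparison, read 3.996 higher on the mutant arrays than on the wild type arrays, where they lay between 8.90 and 8.92. On mutant arrays 1, 2 and 3 they read 11.70, 13.49 and 13.52 (exact permutation p = 0.1, two-sided, the smallest that 3 against 3 arrays allow). Which control probe sets make up this mean was settled after their values had been seen. Every mutant array thus lay above every wild type array in control probe sets, which read no mouse gene, and the part of this in the values of Diaph3 or the other members was not tested.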

How the results depend on the processing

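Each of the 196 member differences recomputed under an alternative moved by less than 1 SD between replicates. For many settings this was fixed in advance, so no stability is read from it. Leaving out 1 array of so small a group cannot move the difference by that much. The replicate block and the filter on dim probe sets left each difference they gave unchanged. Only the weights per array, repeated quantile normalisation and median centring could have given a larger move. The sign held throughout for 14 of the 18 probe sets and turned for 4. These were 1437628_s_at of Rhoa, 1453748_a_at of Kif23 and Ect2, with differences near 0, and Anln. The Anln difference was -0.23 with all arrays and 0.05 without mutant array 1. Calls of the members are not evidence of stability, since this comparison served to choose Diaph3.

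Counts depended on the setting. The limma fits called 528 probe sets, 2 of them of members, 41 genes and 0 pathway genes. Without shared variance 81 probe sets, 0 of members and 0 genes were called (1924 genes at an unadjusted p under 0.05). With a trend and robust prior there were 96 genes and 1 pathway gene, Actb. Weights per array gave 2667 probe sets, 6 of members, 1292 genes and 17 pathway genes, and weights per group gave 111 genes and 2 pathway genes, Pfn1 among them. Repeated quantile normalisation called 62 genes. A mean of at least 5 gave 99 genes and 1 member probe set, since the dim Kif23 probe set was then not tested. At an adjusted p under 0.10 there were 1386 probe sets, 383 genes and 4 pathway genes. Leaving out 1 array gave 36 to 2544 probe sets, 1 to 5 of members, 0 to 1182 genes and 0 to 17 pathway genes. The lowest probe set count was without wild type array 2 and the highest counts were without mutant array 1. Apart from the filter, the cause was not tested.

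The replicate numbers were not taken to pair the arrays. Deviations of same-numbered arrays correlated by 0.051, 0.028 and 0.055, small values that do not settle whether the arrays are paired. With the replicate block 112 probe sets, 1 of members (Diaph3) and 7 genes, without Diaph3, were called. Each array correlated best with its own number, a hint from the data and not from the design. The 3 arrays in each group limit the precision, and the 4 members with 1 probe set, Diaph3 among them, have no second reading.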
